A study of Mus musculus with 14 samples.

Results

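Expression of 10 transcription factors of the trophectoderm, the outer epithelium of the blastocyst, was examined in cloned and IVF-derived mouse embryos. The factors were *Cdx2*, *Gata3*, *Eomes*, *Elf5*, *Tfap2c*, *Tfap2a*, *Gata2*, *Ets2*, *Id2* and *Hand1*. Their probes were found by gene name, control probes excluded, which gave 13 of the 41174 gene probes on the array. *Elf5* was lower in all 8 clones than in all 6 IVF-derived embryos. Its mean was 7.76-fold lower in fusion clones and 12.5-fold lower in injection clones than in females, and the difference passed the test in fusion clones. Against females alone, 15.4% of all probes were lower in every fusion clone and 12.5% in every injection clone. The share lower in all 8 clones than in all 6 controls was not computed. Because *Elf5* was chosen with its low level in the clones known, its values are a description of these arrays. The larger value in injection clones rested on 1 clone, without which the log2 difference went from -3.65 to -3.00. *Cdx2*, *Eomes* and *Gata3* did not pass the test in either kind of clone. *Id2* passed it in injection clones, where 3.67% of all probes did. This call of *Id2* was lost on leaving out most of the arrays singly.

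In somatic cell nuclear transfer (SCNT), the donor nucleus enters the oocyte by injection or by fusion of the donor cell, and gene expression after both routes was set against that after IVF. The 14 samples were blastocysts at E4.0, with 4 clones made by cell fusion (fusion clones), 4 clones made by nuclear injection (injection clones), 3 male and 3 female IVF-derived controls. All clones were labeled female and came from cumulus cells, somatic cells of the follicle shed with the oocyte. All embryos were cultured in KSOM medium. The methods give BDF1 oocytes as recipients and donors heterozygous for an *Xist* knockout on a BDF1 background, but the labels of these samples carry no genotype, and the design calls the controls matched in sex and genotype. The RNA protocol of the labels, with 2 rounds of amplification, is written for the epiblast or extraembryonic part of a single embryo. This is not a description of blastocysts, and the number of embryos per array is not given in the sources used here. Each array is taken as 1 sample and is called a clone or an embryo for short, and p-values measure the spread between arrays, which may be technical.

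The first lineage decision of the mouse embryo separates trophectoderm from inner cell mass. In outer cells, nuclear Yap1 bound to Tead4 switches on *Cdx2* and *Gata3*, and these genes establish trophectoderm identity. After implantation, *Cdx2*, *Eomes*, *Elf5*, *Tfap2c* and *Ets2* maintain the self-renewing trophoblast of the extraembryonic ectoderm, the source of trophoblast stem cells, whereas *Hand1* drives differentiation into trophoblast giant cells. *Elf5* encodes an Ets factor that is known for feeding back on *Cdx2* and *Eomes* and for a promoter that is methylated in cells of the embryonic lineage. Methylation was not measured in these samples.

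The sequences upstream of the annotated starts of the genes on which the comparison turns are given as background on their regulatory ends. They are from the RefSeq promoter table of GRCm38.p6, 250 bases long, 5′ to 3′ on the strand of the gene, with each CG dinucleotide in capitals. *Elf5* has starts at chr2:103411848-103412097 and chr2:103423818-103424067 (windows on the plus strand), *Cdx2* at chr5:147307250-147307499 (minus), *Eomes* at chr9:118477939-118478188 (plus), *Gata3* at chr2:9878601-9878850 (minus) and *Id2* at chr12:25096093-25096342 (minus).
Elf5, upstream start: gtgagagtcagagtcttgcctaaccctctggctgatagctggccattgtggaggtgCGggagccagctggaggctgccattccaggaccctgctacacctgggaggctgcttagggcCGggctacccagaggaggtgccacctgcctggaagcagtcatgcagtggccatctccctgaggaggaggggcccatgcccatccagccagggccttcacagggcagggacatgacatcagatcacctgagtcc
Elf5, downstream start: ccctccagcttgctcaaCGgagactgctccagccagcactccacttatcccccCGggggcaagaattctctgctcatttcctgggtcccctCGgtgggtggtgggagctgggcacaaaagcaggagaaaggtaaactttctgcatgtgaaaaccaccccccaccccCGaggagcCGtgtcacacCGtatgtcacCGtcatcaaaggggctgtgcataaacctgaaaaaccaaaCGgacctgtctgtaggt
Cdx2: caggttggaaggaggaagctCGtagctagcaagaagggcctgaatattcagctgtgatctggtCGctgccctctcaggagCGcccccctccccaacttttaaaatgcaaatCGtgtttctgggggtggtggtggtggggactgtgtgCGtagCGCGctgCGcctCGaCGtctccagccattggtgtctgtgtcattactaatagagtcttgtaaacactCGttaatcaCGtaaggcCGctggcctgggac
Eomes: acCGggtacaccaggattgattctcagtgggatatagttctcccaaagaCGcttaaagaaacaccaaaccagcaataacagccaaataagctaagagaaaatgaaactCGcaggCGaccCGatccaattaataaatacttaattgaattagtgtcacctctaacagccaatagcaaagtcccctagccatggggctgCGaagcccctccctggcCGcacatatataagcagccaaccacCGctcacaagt
Gata3: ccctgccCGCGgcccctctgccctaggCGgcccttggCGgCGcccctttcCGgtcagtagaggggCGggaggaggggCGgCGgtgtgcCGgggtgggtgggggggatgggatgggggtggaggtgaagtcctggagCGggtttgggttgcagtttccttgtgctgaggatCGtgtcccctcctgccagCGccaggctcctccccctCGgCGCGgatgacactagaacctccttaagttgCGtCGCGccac
Id2: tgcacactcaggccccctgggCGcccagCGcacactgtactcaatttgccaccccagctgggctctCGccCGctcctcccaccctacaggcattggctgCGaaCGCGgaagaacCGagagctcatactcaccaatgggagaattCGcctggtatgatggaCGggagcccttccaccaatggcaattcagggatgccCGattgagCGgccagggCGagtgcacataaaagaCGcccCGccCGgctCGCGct

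The window of the upstream *Elf5* start held 2 CG dinucleotides and that of the downstream start 8. *Eomes* also held 8, *Cdx2* 13, *Id2* 18 and *Gata3* 19, against a median of 6 (quartiles 2 and 16) over 32851 promoter windows of the table. The upstream *Elf5* window was the poorest in CG among the 11 windows of the 8 factors in the table, which ranged from 2 to 25. Searched on both strands, GATA (the core of Gata factor sites) was present in both *Elf5* windows and in that of *Eomes*, and in 6 of the 11 windows against 53.6% of all. TTTATG, a form of the Cdx site, was found in the downstream *Elf5* window and in that of *Id2* (3 of 11 against 10.8%). GGAA, the Ets core, was found in 10 of 11 windows against 93.4%, and CATTCC, the Tead site, which can overlap GGAA on the other strand, in 2 of 11 against 12.6%, including the upstream *Elf5* window. A match is a description of the letters only. From which start the transcripts on these arrays came was not measured.

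Signals are given as log2 of the quantile-normalized intensity, with a floor, and differences are on the same log2 scale. Levels of different probes cannot be set against each other on an array, so that only differences between groups are compared. Each group of embryos lay on 1 slide, and clones and IVF-derived embryos were read on different scanners and with different versions of the extraction software, so that these cannot be told apart from the comparison of clones with controls. Between 57.4% and 65.2% of the gene spots of an array were well above background. The blastocyst label was borne out by its markers. The trophectoderm keratin *Krt8* averaged between 18.4 and 18.6 in all 4 groups, and the inner cell mass factor *Pou5f1* between 14.1 and 14.5. The keratin *Krt18* averaged 18.0 in fusion clones, 17.9 in injection clones and 18.5 in females and males. On the linear scale, *Cdx2*, *Krt8*, *Krt18* and *Gata3* summed to 659172 to 853527 in fusion clones and 588639 to 819067 in injection clones. This sum, most of it *Krt8* and *Krt18*, reached higher in the controls, at 807831 to 965769 in females and 868541 to 909654 in males. The 6 markers of cumulus cells summed on the linear scale to 99.6 to 173 in clones and to 139 to 629 in IVF-derived embryos. Of these 6, *Has2*, *Ptx3*, *Tnfaip6* and *Amh* were not well above background on any clone array, and *Inha* was on 1 of 8 clone and 5 of 6 IVF arrays. *Fshr* was well above background on 7 of 8 clone arrays and 3 of 6 IVF arrays, with group means of 4.21 to 4.83 on the log2 scale, near the floor of 4.

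*Elf5* was well above background on all 14 arrays. It measured 10.33, 10.31, 11.16 and 11.18 in the fusion clones and 8.10, 10.16, 10.56 and 11.39 in the injection clones. In IVF-derived embryos it measured 13.11, 13.39 and 14.60 in females and 13.63, 13.03 and 13.64 in males. The share of all probes that separated all clones from all controls was not computed. For *Elf5*, every clone lay below every IVF-derived embryo, with the highest clone at 11.39 and the lowest control at 13.03. The fall in fusion clones against female embryos was -2.96 ± 0.44 (log2 difference and SE, n = 4 and 3, 95% interval -4.02 to -1.89, adjusted p = 0.0160 in limma with Benjamini-Hochberg adjustment over 32458 probes). In injection clones the difference was larger, -3.65 ± 0.82 (interval -5.65 to -1.64), but so was the spread. Its unadjusted p in limma was 0.00412 and its adjusted p 0.0664, and it did not pass. Without injection clone 1, the lowest of the group, the difference was -3.00 (limma, adjusted p = 0.0851), and without each of the arrays in turn it ranged from -4.09 to -3.00 (adjusted p in limma 0.0588 to 0.161). Set against the male embryos, the difference was -2.69 in fusion clones (limma, adjusted p = 0.0126) and -3.38 in injection clones (adjusted p = 0.0605).

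The call of *Elf5* in fusion clones was made with either scaling, either background correction and the deposited values, and without each of the arrays in turn (adjusted p in limma 0.0277 to 0.0479). It was lost with the replicate number as a block, where the difference was -3.10 and the adjusted p 0.0813. The block left out fusion clone 4, which had no female of that replicate number. Without fusion clone 4 alone the difference was also -3.10, and *Elf5* passed (limma, adjusted p = 0.0350). In injection clones *Elf5* passed with a normexp background correction (limma, adjusted p = 0.0459), among probes well above background on every array of a group (0.0374) and with all 4 groups in one fit (0.00825). Because *Elf5* was chosen for comparison with its low level in the clones known, its values are a description of these arrays. In RNA of whole blastocysts, fewer cells that express a gene and less RNA of it per cell cannot be told apart.

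**Figure D1:**
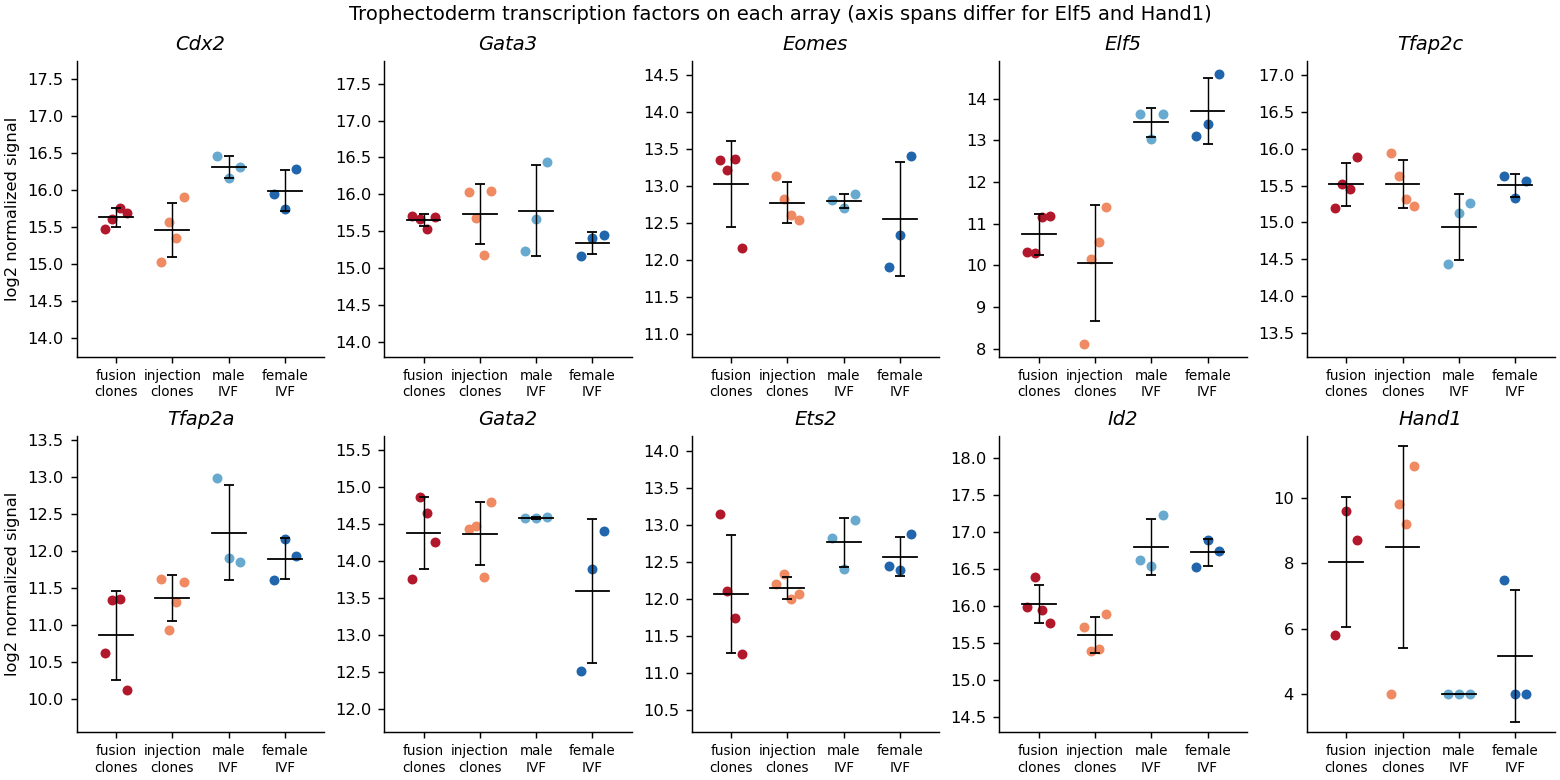
Log2 normalized signal of the 10 factors on each of the 14 arrays, by group (points, 1 per array; horizontal line, mean; bars, SD). *Elf5* lay at 8.10 to 11.39 in the 8 clones and at 13.03 to 14.60 in the 6 IVF-derived embryos, whereas the ranges of *Eomes* and of *Gata3* in clones fell within those of the controls; the spot of *Hand1* of fusion clone 1 is left out as an outlier.

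*Cdx2* and *Gata3* are early markers of the outer cells. *Cdx2*, a homeobox gene required to silence pluripotency genes in the trophectoderm, measured 15.46, 15.60, 15.76 and 15.68 in fusion clones and 15.03, 15.57, 15.35 and 15.90 in injection clones. The female IVF-derived embryos measured 15.94, 15.74 and 16.29, and the males 16.45, 16.16 and 16.31. The means of both clone groups lay under those of both control groups, but clones and females overlapped. The difference from females was -0.36 ± 0.19 (SE) in fusion clones (interval -0.82 to 0.09, adjusted p = 0.277 in limma) and -0.53 ± 0.25 in injection clones (interval -1.14 to 0.09, adjusted p = 0.274). Against the males, whose 3 values exceeded those of all 8 clones, the differences were -0.68 and -0.85, with adjusted p of 0.0561 and 0.0894 in limma, and neither passed.

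*Gata3*, a zinc finger factor that acts beside *Cdx2* downstream of Tead4, measured 15.71, 15.66, 15.54 and 15.69 in fusion clones and 16.03, 15.69, 15.18 and 16.05 in injection clones. It measured 15.17, 15.41 and 15.45 in females and 15.23, 15.66 and 16.44 in males. The fusion clones lay above all females by a narrow margin, and injection clones overlapped with them. The differences from females were 0.31 ± 0.15 (SE; adjusted p = 0.252 in limma) and 0.39 ± 0.25 (adjusted p = 0.409), and against males they were -0.13 and -0.05, so that the sign depended on the control group.

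*Eomes*, a T-box factor needed for trophoblast to proliferate after implantation, measured 13.35, 13.21, 13.37 and 12.16 in fusion clones and 13.14, 12.82, 12.60 and 12.53 in injection clones. The females measured 11.90, 12.33 and 13.40, and the males 12.81, 12.70 and 12.88. The 4 groups overlapped, and the females spanned the range of all clones and males. The differences from females were 0.48 ± 0.46 (SE; interval -0.64 to 1.59, adjusted p = 0.541 in limma) and 0.23 ± 0.38 (interval -0.70 to 1.15, adjusted p = 0.731). The 95% intervals of *Cdx2*, *Gata3* and *Eomes* against females reached no lower than -1.14 in either kind of clone. Those of *Elf5* ended at -1.89 and -1.64. Because *Elf5* was chosen with its low level in the clones known, this contrast is a description and not a test.

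The 3 factors were then set against *Elf5* on each array. The log2 signal of *Elf5* was subtracted from that of the factor, and the mean of the female embryos was set to 0. *Cdx2* relative to *Elf5* was 2.85, 3.01, 2.31 and 2.21 in fusion clones and 4.64, 3.12, 2.50 and 2.22 in injection clones. The females lay at 0.55, 0.06 and -0.60 and the males at 0.53, 0.84 and 0.38. The lowest clone was thus well above the highest control. The mean difference of clones from females was 2.59 for fusion and 3.12 for injection clones (SD within clones 0.39 and 1.08).

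*Eomes* relative to *Elf5* was higher than in females by 3.43 in fusion and 3.87 in injection clones, with clones at 2.13 to 6.19 and females at -0.05 to 0.10. *Gata3* relative to *Elf5* was higher by 3.27 and 4.04, with clones at 2.73 to 6.29 and females at -0.79 to 0.42. None of these groups overlapped. *Elf5* is part of each of these values and by itself lay lower in every clone than in every control, so that the separation of the groups was fixed by *Elf5*, and no test of it is given.

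**Figure D2:**
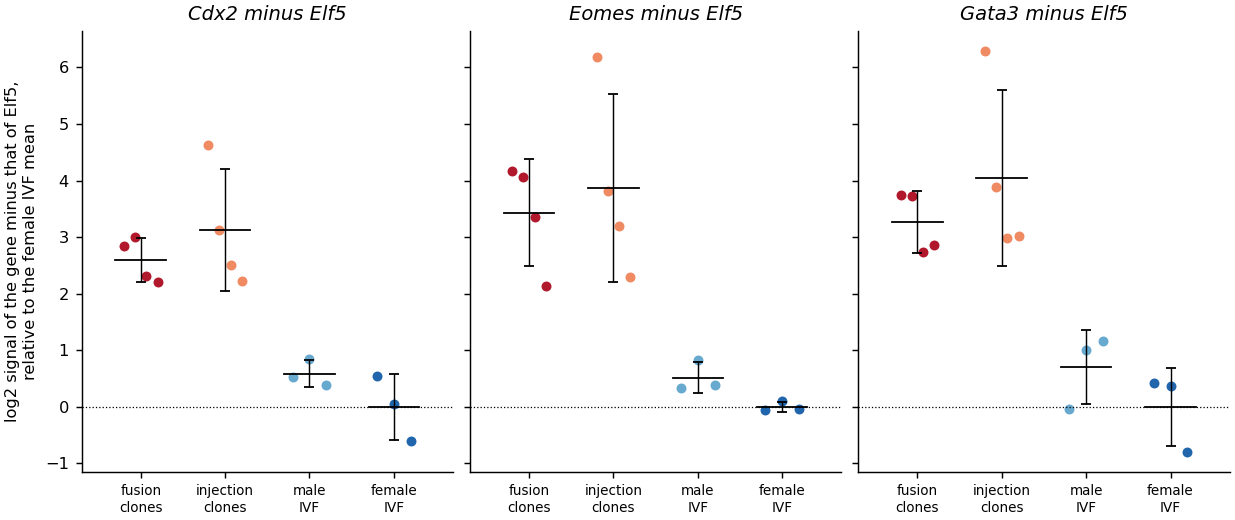
Log2 signal of *Cdx2*, *Eomes* and *Gata3* minus that of *Elf5* on the same array, with the female IVF-derived mean set to 0 (points, 1 per array; horizontal line, mean; bars, SD). All 8 clones lay at 2.13 or higher, and all 6 IVF-derived embryos at 1.16 or lower.

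Within the groups, *Cdx2* was the factor that varied most closely with *Elf5*. Injection clone 1 had the lowest *Elf5* and the lowest *Cdx2* of its group, injection clone 4 had the highest of both, and female embryo 3 had the highest of both among the females. After the mean of each group was subtracted, the correlation of *Cdx2* with *Elf5* over the 14 arrays was 0.876 (Pearson; Spearman 0.714). It was 0.707 (Spearman 0.545) over 12 arrays without injection clones 1 and 4, the arrays farthest out in *Elf5*. In the 8 clones it was 0.896 (Spearman 0.643) and in the 6 IVF-derived embryos 0.848 (Spearman 0.714). *Hand1* gave 0.662 over 13 arrays, with injection clone 1 and most IVF arrays at or near the floor. *Gata2* gave 0.308, and the other 6 factors between -0.39 and 0.00. These are descriptions of arrays that share their amplification and scaling. Among 19291 probes well above background on at least 7 arrays, the genes with the pattern most like that of *Elf5* were *Cers4*, a ceramide synthase (r = 0.963), *Entpd1*, an ectonucleotidase (0.943), and *Tubgcp3*, a gamma-tubulin complex subunit (0.925). Those most like *Cdx2* were *Rab31* (0.904), *Entpd1* (0.899) and *Slc35b4* (0.882).

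*Id2*, an inhibitor of basic helix-loop-helix factors that is enriched in outer cells of the early embryo, was also lower in clones. Its brighter probe measured 15.98, 16.38, 15.95 and 15.77 in fusion clones and 15.72, 15.39, 15.41 and 15.88 in injection clones. The controls measured 16.52, 16.90 and 16.74 in females and 16.61, 16.53 and 17.23 in males. All 8 clones lay below all 6 controls, although the gap between fusion clone 2 and female embryo 1 was small. The share of all probes separated in this way was not computed. Against females alone, 15.4% of probes were lower in every fusion clone and 12.5% in every injection clone. *Id2* fell by 1.12 on the log2 scale in injection clones against females (SE 0.18, 2.17-fold, interval -1.57 to -0.67, adjusted p = 0.0396 in limma). In fusion clones the difference was -0.70 ± 0.21 (SE; adjusted p = 0.0831) and did not pass.

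The dimmer *Id2* probe measured 11.65 to 12.43 in fusion clones, 11.14 to 11.95 in injection clones, 12.77 to 13.37 in females and 13.56 to 13.70 in males. It gave -1.47 ± 0.27 (SE; adjusted p = 0.0466 in limma) in injection clones and -1.06 ± 0.25 (adjusted p = 0.0504) in fusion clones, in the same direction as the brighter one. The call in injection clones rested on few arrays. It was lost without injection clone 1, 2 or 3 or any 1 of the females (adjusted p in limma 0.0589 to 0.104). It was also lost with the deposited values (limma, 0.0813), a floor of 1 (0.0781) and the replicate block (0.194). The block left out injection clone 4, without which alone *Id2* passed (limma, adjusted p = 0.0472). Of the paralogs, *Id1* and *Id3* differed by -3.23 and -3.60 in fusion clones and by -3.55 and -2.50 in injection clones, with wide spread, and did not pass (adjusted p 0.0990 to 0.188 in limma).

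Of the AP-2 factors, *Tfap2c* is expressed throughout the trophectoderm and acts on *Cdx2*. It measured between 15.19 and 15.93 in the 8 clones and between 15.33 and 15.63 in the females. The difference was 0.01 in fusion clones (interval -0.49 to 0.51, adjusted p = 0.983 in limma) and 0.02 in injection clones (interval -0.50 to 0.54, adjusted p = 0.968). The males measured 14.43, 15.13 and 15.26, with 2 of the 3 below every clone, and against them the difference was 0.57 and 0.58 (adjusted p 0.248 and 0.269 in limma). *Tfap2a*, its paralog, measured 10.62, 11.33, 11.36 and 10.12 in fusion clones against 11.60, 12.16 and 11.93 in females, with no overlap. The difference of -1.04 ± 0.36 (SE) did not pass (adjusted p = 0.123 in limma, unadjusted p = 0.0250). In injection clones it was -0.53 (adjusted p = 0.236). A second *Tfap2a* probe lay at background throughout and was not tested.

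*Gata2*, which with *Gata3* activates trophoblast genes, gave different directions with its 2 probes. The probe with values in all groups measured 13.76 to 14.86 in fusion clones and 13.79 to 14.80 in injection clones, against 12.51, 13.89 and 14.40 in females and 14.58 to 14.60 in males. Its differences from females were 0.78 (adjusted p = 0.377 in limma) and 0.77 (adjusted p = 0.410). The brighter probe was marked as an outlier spot on all 6 IVF arrays and on none of the 8 clone arrays. With those spots kept, it gave -0.62 and -0.55 (adjusted p 0.408 and 0.447 in limma). The direction of *Gata2* was therefore not settled.

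*Ets2*, an Ets factor needed for trophoblast stem cells to self-renew, measured 13.15, 12.12, 11.75 and 11.26 in fusion clones, the widest spread among the fusion clones apart from *Hand1*. The injection clones lay at 12.01 to 12.34, below all females at 12.39 to 12.88. The differences from females were -0.51 ± 0.45 (SE; adjusted p = 0.501 in limma) and -0.42 ± 0.18 (adjusted p = 0.219).

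*Hand1*, a basic helix-loop-helix factor of giant cells and extraembryonic mesoderm, was the factor with the least even detection. It was well above background on 7 of the 8 clone arrays and on 1 of the 6 IVF arrays. Fusion clones 2, 3 and 4 measured 5.82, 9.61 and 8.70, and the spot of fusion clone 1 was marked as an outlier, with 12.47 if kept. Injection clone 1 was at the floor, and injection clones 2, 3 and 4 measured 9.83, 9.20 and 10.97. Among females 1 embryo measured 7.49 and the other two were at the floor, as were 2 of the males, and the remaining male was at 4.01. The differences from females, 2.88 in 3 fusion clones (interval -0.62 to 6.38, adjusted p = 0.258 in limma) and 3.34 in injection clones (interval -1.18 to 7.85, adjusted p = 0.347), did not pass. Against males they were 4.04 and 4.49 (adjusted p 0.0688 and 0.170 in limma). With most controls at the floor, the size of these differences depends on it, and with the deposited values they were 6.46 and 5.27 against females (adjusted p 0.112 and 0.279). Fusion clone 2 and injection clone 1 lay within the range of the females, and female embryo 1 lay within that of each kind of clone.

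Taken as a group, 1 of the 10 factors passed the test in fusion clones, *Elf5*, which was lower, where 9.5% of all 32458 probes tested passed it (5.18% lower and 4.32% higher). *Elf5* was in the set with its low level in the clones known, so the counts that include it are a description only. In injection clones 1 of 10 passed, *Id2*, which was lower, against 3.67% of 32840 probes (2.14% lower). With the criteria named in the methods (5% level without adjustment and a 2-fold change), 2 factors were lower in fusion clones (*Elf5* and *Tfap2a*; 8.59% of probes were lower) and 2 in injection clones (*Elf5* and *Id2*; 7.08%). Without regard to a test, 3 factors were lower in all fusion clones than in any female (*Elf5*, *Id2* and *Tfap2a*; 15.4% of probes) and 1 was higher (*Gata3*; 10.4%). In injection clones 3 were lower (*Elf5*, *Id2* and *Ets2*; 12.5%) and 0 higher (8.39%). The median difference of the 10 factors was -0.18 in fusion clones and -0.20 in injection clones, beside -0.12 and -0.08 over all probes, and 5 of 10 lay above 0 in each.

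**Figure D3:**
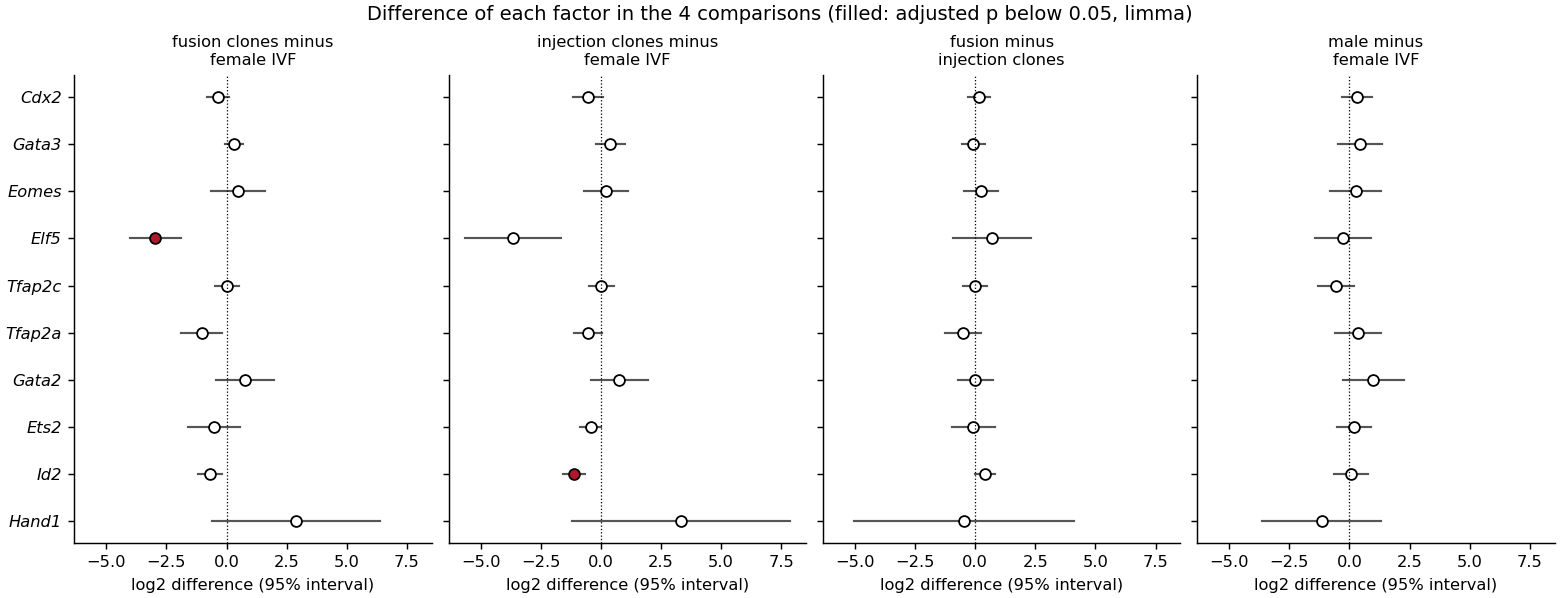
Log2 difference of each factor with its 95% interval in 4 comparisons (circles; filled where the adjusted p in limma was below 0.05). Of the 40 differences only *Elf5* in fusion clones (-2.96) and *Id2* in injection clones (-1.12) were filled.

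Between fusion and injection clones, 0 of the 10 factors passed the test, as did 0 of all 32303 probes (0%; 1993 probes, 6.17%, had an unadjusted p below 0.05 in limma). All 10 factors overlapped (1.83% of probes were lower and 1.48% higher in every fusion clone), and the differences ranged from -0.51 for *Tfap2a* to 0.69 for *Elf5*. The smallest adjusted p was 0.810. For *Elf5* the interval was -0.93 to 2.31, and without injection clone 1 the difference was 0.04. *Id2* was 0.42 higher in fusion clones (interval 0.00 to 0.84, unadjusted p = 0.0498 and adjusted p = 0.810 in limma). *Cdx2* and *Gata3* were bounded more tightly, at -0.29 to 0.62 and -0.56 to 0.40.

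Between male and female IVF-derived embryos, 0 of the 10 factors passed (0.0593% of 32046 probes did; 7.76% had an unadjusted p below 0.05), and the smallest adjusted p in limma was 0.661. *Gata2* was higher in all males than in any female (0.99, interval -0.28 to 2.26; 6.03% of probes) and *Tfap2c* lower (-0.56, interval -1.31 to 0.18; 6.82%). *Elf5* differed by -0.27 (interval -1.42 to 0.89) and *Cdx2* by 0.32 (interval -0.30 to 0.93).

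The genes around these factors were examined by the same test, list by list. Over all probes, 5.18% passed as lower and 4.32% as higher in fusion clones. In injection clones 3.67% passed, with 2.14% lower. The count of each list, here and in the next paragraphs, is to be read beside these shares. Of 16 trophectoderm effectors and markers (keratins, the pump subunit *Atp1b1*, the water channel *Aqp3*, junction genes and surface markers), 0 passed in either kind of clone, and their median differences were -0.14 and -0.22. *Krt8* differed from females by -0.02 in fusion and -0.11 in injection clones, and *Krt18* by -0.47 and -0.59. *Krt7* differed by -2.20 and -2.63 without passing (adjusted p 0.129 and 0.0641 in limma). Of the regulators upstream of the factors, 1 of 15 passed in fusion clones and 0 of 16 in injection clones. This was *Yap1*, the coactivator of Tead4, which was higher by 1.60 ± 0.18 (SE; adjusted p = 0.00750 in limma) in fusion and 1.57 ± 0.36 (adjusted p = 0.0672) in injection clones. *Tead4* itself differed by 0.16 and 0.05 (adjusted p 0.775 and 0.956).

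Among 15 partners of the factors in trophoblast stem cells, 2 were lower and 1 higher in fusion clones, and 1 was lower in injection clones. *Bmp4*, a secreted growth factor that supports trophoblast, fell in both, with differences of -3.16 ± 0.70 (SE; adjusted p = 0.0417 in limma) and -3.23 ± 0.41 (adjusted p = 0.0241), from 10.02 in females to 6.86 and 6.79. *Nr0b1*, a nuclear receptor of pluripotent cells, was well above background in 1 of 4 fusion clones and all 3 females, and its difference was -5.03 (adjusted p = 0.00528). The zinc finger gene *Zfp281* was higher by 1.44 (adjusted p = 0.0357). *Esrrb* did not pass (-1.40 and -0.29, adjusted p 0.486 and 0.682). Of 15 later trophoblast genes tested, 0 passed in fusion clones and 1 in injection clones, *Plac1* (-3.13, adjusted p = 0.0418). Their medians were -0.27 and -0.29.

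Markers of the other lineages of the blastocyst were examined in the same way. Of 13 inner cell mass and epiblast genes, 1 was higher in fusion clones (*Sall4*, 1.29, adjusted p = 0.0435 in limma) and 1 in injection clones (*Zfp42*, 0.93, adjusted p = 0.0437), with medians near 0. The summed level of *Pou5f1*, *Nanog* and *Sox2* was 23727 to 48402 in clones and 25785 to 41676 in female embryos. Its members went in different directions. *Nanog* averaged 13.38 in fusion and 13.41 in injection clones, against 12.30 in females and 12.45 in males, and did not pass. *Pou5f1* averaged 14.12 and 14.34 against 14.54 in females, and *Sox2* 10.35 and 11.28 against 10.74. Of 14 primitive endoderm genes, 2 were lower in fusion clones (*Sox7* and *Foxa2*; 5.18% of all probes) and 3 in injection clones (*Foxa2*, *Lama1* and *Lamb1*; 2.14%). Their medians were -1.37 and -2.19, and the median of the same list between male and female embryos was -0.59. *Foxa2* was not well above background in any fusion clone and was at least 146-fold lower there (adjusted p = 8.3e-05 in limma). The size of this bound depends on the floor to which low values were raised. The summed level of *Gata6*, *Gata4*, *Sox17* and *Pdgfra*, most of it *Gata6*, overlapped between clones (61390 to 160746) and females (88473 to 134140). *Gata6* averaged 16.41 in fusion clones, 16.08 in injection clones and 16.18 in females. The others averaged lower in both kinds of clone, with wide spread, and did not pass. *Gata4* averaged 5.69 and 4.66 against 8.23 in females, *Sox17* 11.03 and 9.33 against 14.11, and *Pdgfra* 12.68 and 12.26 against 13.77. Of 16 paralogs of the factors tested in fusion clones, 1 passed (*Tbx3*, higher by 1.22, adjusted p = 0.0258), and 0 of 17 passed in injection clones. Of the cumulus cell genes 0 of 13 and 0 of 11 passed. The part of these lineage markers in the values of the factors was not tested. Between fusion and injection clones, and between male and female embryos, 0 genes of any of these lists passed.

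**Figure D4:**
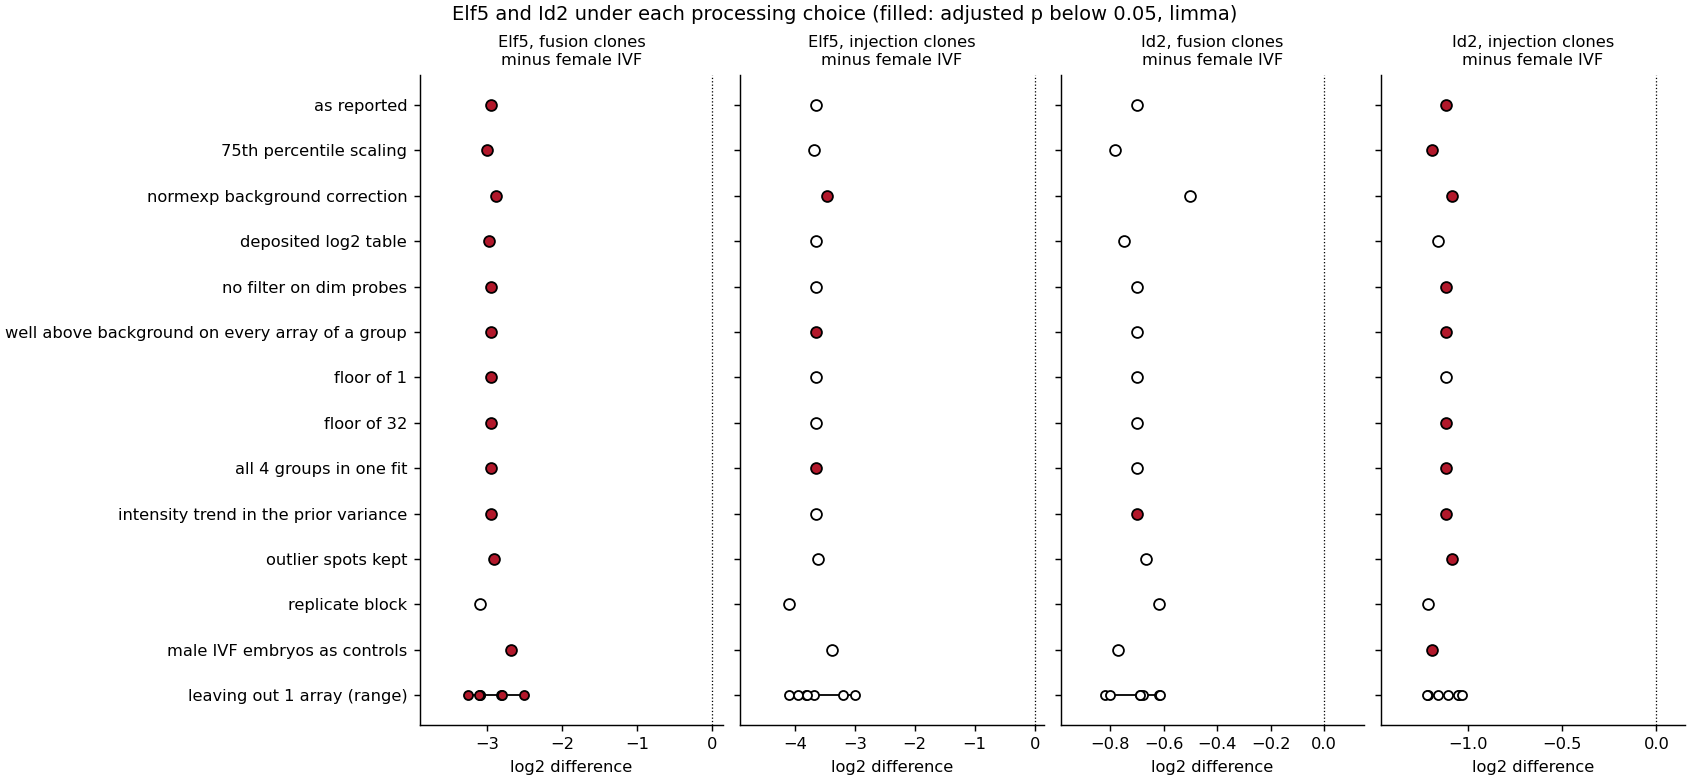
Log2 difference of *Elf5* and *Id2* in clones against female IVF-derived embryos under each processing choice (circles; filled where the adjusted p in limma was below 0.05), with the values without 1 array each in the bottom line. *Elf5* lay between -2.51 and -3.25 in fusion clones under all choices, and was called under all but the replicate block.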

How the data were processed

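The authors deposited, for each of the 14 one-color arrays, spot intensities on a linear scale from Agilent Feature Extraction (10.5.1 per the labels, 10.5.1.1 for clones and 9.5.3.1 for IVF-derived embryos per the file headers), background-subtracted but not normalized between arrays. Their log2 table of the same arrays, also deposited and centred per probe, served as an alternative, with 0 columns unused. The quintile normalization of the methods was read as quantile normalization. Here, control and outlier spots were dropped, and processed signals were quantile-normalized. Values under 16 were raised to 16, and the log2 values of replicate spots were averaged. A probe entered a comparison if marked well above background on 1 or more of its arrays. Tests used limma 3.58.1 (R 4.3.3) with Benjamini-Hochberg adjustment over all probes entered. A factor is given by its brightest probe with values in all groups, and other probes are named beside it. A planned permutation test of the differences from *Elf5* is not given, since the separation of *Elf5* itself fixed its outcome. Precision is limited by the number of arrays. The fits were tested on simulated data.

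The factors, gene lists and alternatives were chosen with earlier results of these data known. Within each list, genes without a tested probe, such as *Fgf4*, were not analysed here. Arrays of the same replicate number had correlated deviations over a set limit of 0.1 at every number only between male and female embryos (0.109, 0.129 and 0.110). Replicate 3 of fusion and injection clones gave 0.108, and whether the numbers mark a pairing was not tested. Between male and female embryos, the replicate block left the count of factors called at 0. Between clones and females, the block left out clone 4 of each kind. Gene positions and promoters came from RefSeq tables of GRCm38.p6, which held promoters of 8 of the 10 factors. Figures were drawn with Python 3.11.15 and matplotlib 3.10.9.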

Additional observations from a re-analysis of the deposited data

Results flagged for a closer look

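Fusion clone 4 stood far from the other fusion clones in *Eomes*, with 12.16 on the log2 scale against 13.21, 13.35 and 13.37. The gap was large for the range of the 4 values by Dixon's test. It was the only one found among 19 groups of 4 values tested for the 10 factors, and chance alone flags about 1 in 20 groups. Its cause was not tested. No factor differed between fusion and injection clones in limma after adjustment (0 of 10 at an adjusted p below 0.05, and 1, *Id2*, at an unadjusted p below 0.05).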

How the results depend on the processing

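Of 739 values of single factors under the alternatives, 681 kept their direction and their side of the threshold. Leaving out 1 array moved the differences of *Cdx2*, *Eomes* and *Gata3* from *Elf5* to 2.29 to 2.87, 3.18 to 3.87 and 2.87 to 3.48 in fusion clones, 2.61 to 3.42, 3.10 to 4.40 and 3.29 to 4.40 in injection clones, and 2.55 to 3.13, 3.29 to 3.87 and 3.26 to 3.86 in all clones.

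The count of probes called varied more. Against female embryos, 3085 probes in fusion clones became 0 with the replicate block and 1125 to 2824 without 1 array each. The 1 factor called there became 2 with an intensity trend and 0 with the block, and remained 1 without any 1 array. In injection clones, 1205 probes became 629 with the deposited values, 774 without a filter, 1932 with detection on every array of a group, 599 with a floor of 1, 3100 with all groups in one fit, 0 with the block and 160 to 1039 without 1 array each. The 1 factor called became 2 with normexp, with detection on every array and with all groups in one fit, 0 with the deposited values, the floor of 1 and the block, and 0 to 1 without 1 array. Between the clones, 0 probes became 2, 11 and 1 with the deposited values, a floor of 1 and all groups in one fit, and 0 to 2 without 1 array, and 0 factors were called. Between male and female embryos, 19 probes became 7 with normexp, 151 with the deposited values, 34 without a filter, 58 with detection on every array, 100 with a floor of 1, 205 in one fit, 3 with the trend, 0 with the replicate block and 1 to 15 without 1 array, again with 0 factors called.

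Signs changed only for differences that had not passed. *Tfap2c* against females became -0.091 in fusion and -0.050 in injection clones with 75th percentile scaling, and -0.058 and -0.022 with the deposited values. In fusion clones it became -0.0017 with normexp and -0.11 with the replicate block. The block left out fusion clone 4, and leaving out that clone alone also gave -0.11. With males as controls, *Gata2* became -0.21 and -0.22 and *Gata3* -0.13 and -0.045 in fusion and injection clones, and *Eomes* -0.025 in injection clones. The other *Gata2* probe, an alternative chosen after seeing the data, gave -0.62 and -0.55. Between the clones, *Gata2* became -0.035, -0.063 and -0.030 with 75th percentile scaling, normexp and the deposited values, and *Hand1* 1.19, 0.54 and 0.65 with the deposited values, a floor of 1 and outlier spots kept. Between male and female embryos *Hand1* became 0.42 with the deposited values. The causes were not tested.

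Leaving out 1 array turned the sign of some of these, with ranges of -0.11 to 0.12 for *Tfap2c* in fusion clones against females, -0.11 to 0.12 for *Tfap2c* and -0.10 to 0.65 for *Eomes* in injection clones against females, -0.14 to 0.12 for *Tfap2c*, -0.19 to 0.22 for *Gata2*, -1.96 to 0.66 for *Hand1*, -0.44 to 0.18 for *Ets2* and -0.27 to 0.020 for *Gata3* between the clones, -0.020 to 0.55 for *Tfap2a*, -0.15 to 0.20 for *Id2*, -0.071 to 0.68 for *Eomes* and -0.56 to 0.18 for *Elf5* between male and female embryos.

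Deviations of clones and females with the same replicate number had correlations of -0.07 to 0.06. Whether the numbers mark a pairing was not tested. The block gave *Elf5* -3.10 in fusion clones (limma, adjusted p = 0.0813) and *Id2* -1.21 in injection clones (adjusted p = 0.194). It left out clone 4 of each kind. Leaving out that clone alone gave the same differences, and both passed (limma, adjusted p 0.0350 and 0.0472).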
